A study of Mus musculus with 22 samples.

Results

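The genes described here are 41 genes of the synaptic vesicle release machinery, taken by their symbols from 2 tables of splicing deficiency scores (Sd scores) of mouse cortex. All 41 were found, with 1 row each, among the 15705 genes of the 6-month table and among the 15192 genes of the 12-month table. By role they comprise 7 SNARE proteins and their regulators, 3 SNARE disassembly factors, 8 synaptotagmins and Doc2 proteins, most of them calcium sensors, 6 active zone scaffolds, 5 priming factors, 4 vesicle-attached proteins and 8 vesicle membrane proteins. The Sd score is a ratio per gene and library, taken here to set unspliced against spliced signal, so that a higher score stands for more unspliced RNA. Its formula was not given in the sources used here.

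Cortex RNA was sequenced from mice of 2 ages. At 6 months there were 3 libraries each of dTg, N40K, 5xFAD and WT mice, all littermates from matings of N40K-Tg +/- with FAD +/- mice. N40K mice carry a transgene for an amino-terminal part of the U1 snRNP protein U1-70K, 5xFAD mice carry mutant human amyloid precursor protein and presenilin transgenes, and dTg mice carry both sets. At 12 months there were 6 libraries of Tau P301S mice, which carry mutant human tau, and 4 of their WT littermates from matings of Tau P301S +/- with WT mice. The sources used here do not give the transgene promoters or say whether animals were pooled. The files hold no expression levels, so neither the transgenes nor the tissue could be checked by transcript abundance, and fewer cells of a type cannot be told apart from less RNA per cell.

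Neurotransmitter is released when a synaptic vesicle fuses with the presynaptic membrane. SNARE proteins of the vesicle and of the membrane zip together, synaptotagmins bind calcium and trigger fusion, and complexins hold the assembled complex ready. Scaffolds of the active zone and priming factors bring vesicles to the release site, and NSF with its SNAP adaptors takes the spent SNARE complexes apart. The U1 snRNP, which the N40K transgene concerns, recognises the 5′ splice site by pairing with the last exon bases and the first intron bases.

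The release genes had low scores. In 6-month WT cortex the median of their mean scores was 0.007, against 0.0297 over all genes, and 5 of 41 lay above the median gene. The mean over all 12 libraries lay under 0.02 in 33 of the 41 (80.5%), against 6065 of all genes (38.6%). At 12 months the WT median was 0.00375 for the release genes and 0.0153 for all genes, with 35 of 41 (85.4%) and 8673 genes (57.1%) under a mean of 0.02. The deposited scores are rounded to steps of 0.001, so many of the release genes could differ by only a few steps. A score of 0.002 or less in every library was found in 11 of the 41 genes at 6 months and in 13 at 12 months. Over all genes it was found in 545 (3.47%) at 6 months and in 1064 (7.0%) at 12 months.

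Single genes stood far from this level. Vamp2 (ENSMUSG00000020894), the main synaptobrevin of forebrain vesicles, had a 6-month WT score of 2.47 ± 0.0241 (SD, n = 3), above 1 as in 404 of all genes. Its 12 libraries at 6 months ranged from 2.245 to 2.527. Doc2a (ENSMUSG00000052301), a calcium sensor of asynchronous and spontaneous release, came next with 0.119 ± 0.00624, followed by the priming factor Unc13a (ENSMUSG00000034799) with 0.0373 ± 0.00153. At the other end Rims1, a central active zone scaffold, was listed at 0 in all 12 libraries. At 12 months the highest WT mean scores were those of Doc2a (0.129 ± 0.0197), Vamp2 (0.0693 ± 0.00896) and Sv2c (0.0622 ± 0.0147; SD, n = 4). Erc2, a scaffold, and Syt1, the fast calcium sensor, were listed at 0 in all 10. Over the 41 genes the WT means at the 2 ages were ordered alike (Spearman rho 0.813), but the tables were made separately and Vamp2 differed most between them, so levels were not tested across ages.

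The scores were lower in genes with more intronic sequence, counted here as the part of a gene that no annotated exon covers. Release genes had a median of 56.6 kb of intronic sequence in the GENCODE M21 annotation, against 20.7 kb over the 14911 genes with data. Among the 41 genes, Spearman's rho between intronic length and 6-month WT score was −0.692, and over all genes it was −0.630. Vamp2, the gene of highest score, had 0.086 kb in introns that no annotated exon covers, and Doc2a had 2.487 kb. Rims1 had 512.382 kb and Erc2 846.382 kb. These correlations are across genes of the same libraries, which are not independent replicates.

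**Figure D1:**
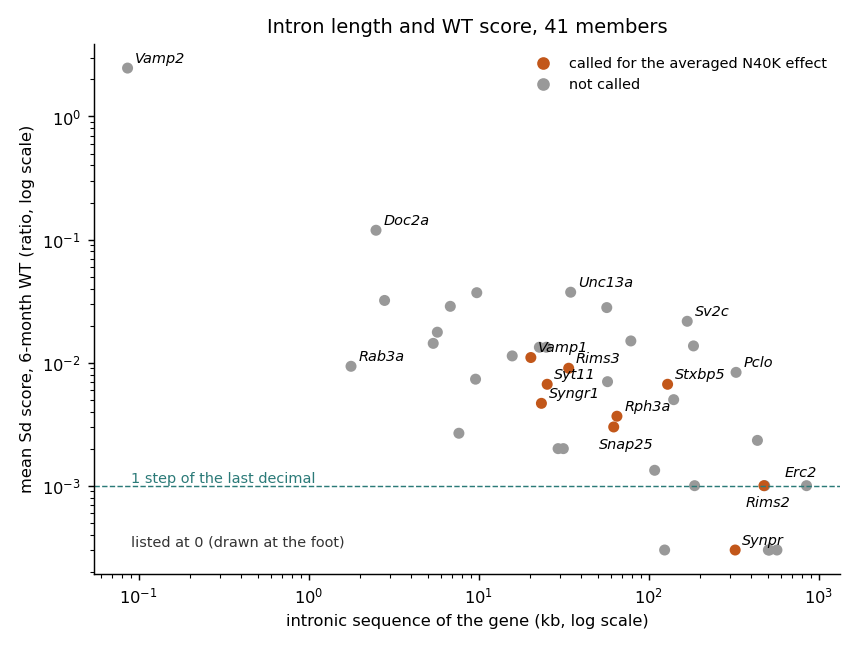
Mean Sd score of the 3 WT libraries at 6 months (ratio, log scale) against intronic sequence that no annotated exon covers (kb, log scale) for the 41 release genes. Genes listed at 0 are drawn at the foot, and the dashed line is at 1 rounding step. Vamp2 stands alone at 0.086 kb and a score of 2.47, and the 9 genes called for the averaged N40K effect (orange) lie at 20.247 kb or more and at WT scores of 0.011 or less.

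The N40K effect averaged over 5xFAD status compares the 6 libraries with the N40K transgene (dTg and N40K) with the 6 without it (5xFAD and WT). In this comparison the scores of 9 of the 41 release genes rose and none fell (limma, adjusted p under 0.05). Over all genes 10.8% rose and 0.936% fell. The 9 were the SNARE genes Snap25, Vamp1 and the SNARE regulator Stxbp5, the synaptotagmin Syt11, the scaffolds Rims2 and Rims3, the Rab3 effector Rph3a, and the vesicle membrane genes Syngr1 and Synpr. No SNARE disassembly or priming gene was called. Of the 41 genes, 30 had a change above 0, 7 below 0 and 4 at 0, with a median change of 0.14 on the log2 scale, against 0.09 over all genes.

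Since all genes together were shifted, the changes of called genes are also given relative to that median of 0.09. Of the 12 libraries, dTg replicate 2 and N40K replicate 1 had the highest medians over all genes (0.035 and 0.036, against 0.029 to 0.033 in the others). In all 9 called genes these libraries were the highest of their groups, or tied for it. For Rims2 and Synpr the tie holds in any case, since their groups had no spread. Genes not called were not examined in this way. Without dTg replicate 2 and N40K replicate 1, 6 genes rose (Snap25, Vamp1, Synpr, Rims2, Syt11 and Stxbp5), and 4.4% of all genes rose. With the median of every library set to the same value (median-centring), 5 rose (Snap25, Vamp1, Rims3, Rims2 and Syngr1). Rab3a, the vesicle GTPase, fell (adjusted p = 0.0309, limma). Over all genes 4.54% then rose and 3.36% fell. In that setting 21 of the 41 release genes had a change above 0 and 20 below. Their median change was 0.0025, against −0.04 over all genes. Without WT replicate 2 or without 5xFAD replicate 3, 5 genes rose, as did 4.67% and 4.8% of all genes.

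**Figure D2:**
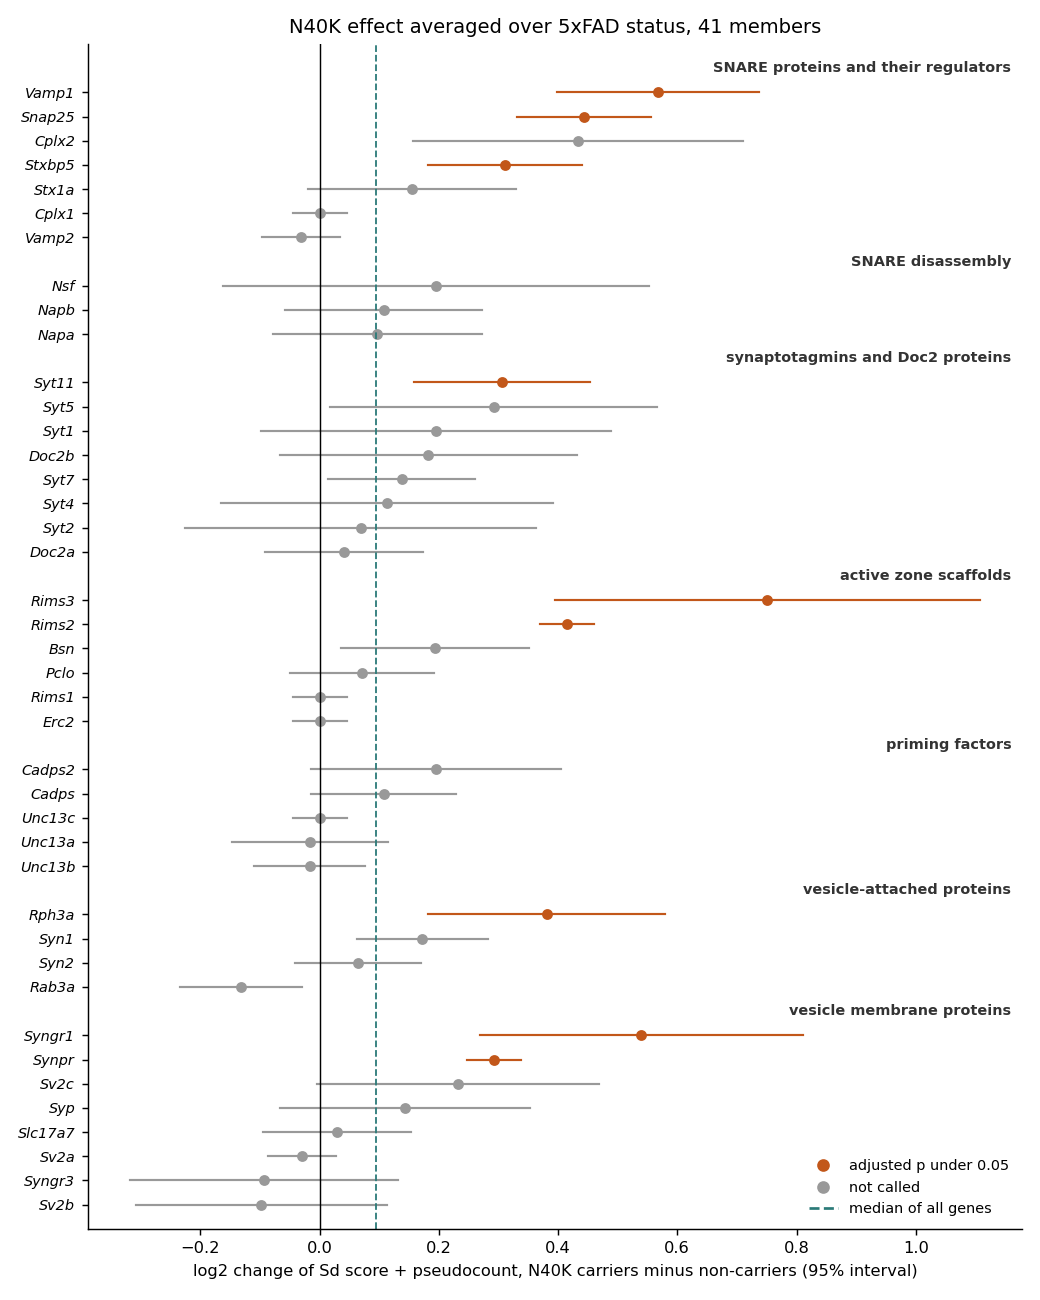
Change of each release gene with N40K, averaged over 5xFAD status, as points with 95% intervals on the log2 scale, grouped by role (dTg and N40K minus 5xFAD and WT, n = 6 each). The 9 called genes (orange) lie between 0.29 and 0.75, to the right of the median of all genes at 0.09 (dashed), and 7 genes lie below 0.

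Among the SNARE proteins, Vamp1 (ENSMUSG00000030337), a synaptobrevin found mainly in spinal cord, brainstem and certain forebrain neurons, had scores of 0.019, 0.022 and 0.018 in dTg mice and 0.020, 0.016 and 0.015 in N40K mice. Its scores were 0.013, 0.012 and 0.012 in 5xFAD mice and 0.011, 0.010 and 0.012 in WT mice. Every carrier library lay above every other library. The averaged change was 0.57 (SE 0.08, 1.48-fold, limma adjusted p = 0.00659), or 0.47 relative to all genes.

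Snap25 (ENSMUSG00000027273), the SNARE of the presynaptic membrane, scored 0.005, 0.006 and 0.005 in dTg and 0.005, 0.004 and 0.004 in N40K mice. It scored 0.003 in each of the 5xFAD and WT libraries. The groups did not overlap, although they lay only 1 to 3 rounding steps apart. The averaged change was 0.44 (SE 0.05, 1.36-fold, limma adjusted p = 0.00514), or 0.35 relative to all genes. If rounding had worked against the difference in each library, the fold would still be at least 1.14 for Snap25 and 1.39 for Vamp1. Vamp1, Snap25 and Rims2 were the 3 release genes whose carrier libraries all lay above all others, as did 5.11% of all genes.

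Stxbp5 (ENSMUSG00000019790), tomosyn, which competes with synaptobrevin for SNARE partners, scored 0.009, 0.010 and 0.009 in dTg and 0.010, 0.009 and 0.008 in N40K mice. It scored 0.008, 0.007 and 0.007 in 5xFAD and 0.006, 0.007 and 0.007 in WT mice, so that the groups met at 0.008. It rose 1.24-fold (limma adjusted p = 0.0152, 0.22 relative to all genes). The complexin Cplx2 had a similar fold to Snap25 but missed the threshold (1.35-fold, limma adjusted p = 0.0519, 0.34 relative to all genes), with 0.00433 ± 0.00103 in carriers and 0.00267 ± 0.000516 in the others (SD, n = 6 each). Vamp2, whose protein shares its role with that of Vamp1, had 2.40 ± 0.0948 in carriers and 2.45 ± 0.0449 in the others (change −0.03, 95% interval −0.10 to 0.03). Stx1a and Cplx1 were not called either. Cplx1 was listed at 0.002 in every library, so a change smaller than the rounding step could go unseen in it.

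The exon ends of Vamp1 and Vamp2 are shown because these paralogues have the same number of introns and differ in both score and call, and because the last exon bases are what U1 snRNA pairs with. The last 20 bases before each intron are given 5′ to 3′ from the GENCODE M21 transcripts (GRCm38, + strand), with the last 3, the exonic part of the 5′ splice site, in capitals.
Vamp1 exon 1 (chr6:125215708-125215727): acttcctctttcagaaaAAT
Vamp1 exon 2 (chr6:125218681-125218700): cccaggcacaagtggagGAG
Vamp1 exon 3 (chr6:125219050-125219069): actggtggaaaaactgcAAG
Vamp1 exon 4 (chr6:125219618-125219637): catcgtggtagtgattgTAA
Vamp2 exon 1 (chr11:69088608-69088627): ctgcccgctacccccgcCAT
Vamp2 exon 2 (chr11:69089207-69089226): cccaggcccaggtggatGAG
Vamp2 exon 3 (chr11:69089870-69089889): actggtggaaaaacctcAAG
Vamp2 exon 4 (chr11:69090008-69090027): catcctcatcatcatcaTCG
In each of these genes, 2 of the 4 exon ends have the AG that the common 5′ splice site has at the exon's end, and so do 5 of 7 in Snap25. Over the 9 called genes 52 of 102 exon ends (51.0%) end in AG, over the other 32 release genes 238 of 458 (52.0%), and over all genes with a matched transcript (13635) they number 86590 of 154172 (56.2%). The score is given per gene, so it does not say which intron's signal differed, and the intronic part of the sites was not analysed here.

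Among the synaptotagmins and Doc2 proteins, Syt11 (ENSMUSG00000068923), a synaptotagmin that does not bind calcium and acts in vesicle trafficking, scored 0.007, 0.009 and 0.008 in dTg and 0.010, 0.008 and 0.008 in N40K mice. It scored 0.006 in each 5xFAD library and 0.007, 0.006 and 0.007 in WT mice, and the groups met at 0.007. It rose 1.24-fold (limma adjusted p = 0.0217, 0.21 relative to all genes) and missed the threshold without WT replicate 2 (adjusted p = 0.0529) or without 5xFAD replicate 3. None of the other 7 was called. Syt5 (1.22-fold, 0.20 relative to all genes) and Syt7 (1.10-fold, 0.04 relative to all genes) were past an unadjusted p of 0.05 only.

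Among the active zone scaffolds, Rims3 (ENSMUSG00000032890), a short RIM protein that modulates presynaptic calcium channels, had the largest change of the 41 genes. It scored 0.016, 0.022 and 0.019 in dTg and 0.020, 0.010 and 0.014 in N40K mice. It scored 0.008, 0.011 and 0.008 in 5xFAD and 0.010, 0.007 and 0.010 in WT mice. The 0.010 of N40K replicate 2 fell among the non-carrier values, and the other 5 carrier libraries were above them all. The change was 0.75 (SE 0.16, 1.68-fold, limma adjusted p = 0.0207), or 0.66 relative to all genes. It missed the threshold without WT replicate 2, 5xFAD replicate 3 or dTg replicate 2 (adjusted p up to 0.0535), and without N40K replicate 1 and dTg replicate 2 together (adjusted p = 0.0644).

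Rims2 (ENSMUSG00000037386), a RIM scaffold that ties vesicles and calcium channels to the release site, scored 0.002 in all 6 carrier libraries and 0.001 in all 6 others. The groups were separated by 1 rounding step with no spread within any of them (1.33-fold, limma adjusted p = 1.12e-05, 0.32 relative to all genes). Rounding alone allows a fold as low as 1, so the size of this difference cannot be read from the scores. In the p-value of Rims2 its own spread of 0 carries 8 degrees of freedom, against 1.2 for the spread that limma takes from all genes. Spread below the rounding step could go unseen, so this p-value does not measure the spread between animals. Of the other scaffolds, Rims1 was listed at 0 and Erc2 at 0.001 in every library, where a change smaller than the rounding step could go unseen. Bsn and Pclo were not called.

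The priming factors gave no call (limma; none of the 5 at an unadjusted p under 0.05). Their changes ran from −0.02 for Unc13a and Unc13b to 0.19 for Cadps2, or from −0.11 to 0.10 relative to all genes. The SNARE disassembly genes Nsf, Napa and Napb gave none either (none of the 3 unadjusted). Their changes ran from 0.10 for Napa to 0.19 for Nsf, or from 0.00 to 0.10 relative to all genes. Many of these genes lay near the rounding step of 0.001, and a change smaller than that step could go unseen in them. Unc13c was listed at 0.001 in every library, Cadps2 and Nsf at 0 or 0.001, and Cadps and Napb at 0.002 or 0.003. The absence of a call says little for them. Unc13a, Unc13b and Napa scored 0.011 or more.

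Among the vesicle-attached proteins, Rph3a (ENSMUSG00000029608), rabphilin, which binds Rab3 on the vesicle, scored 0.005, 0.006 and 0.005 in dTg and 0.006, 0.004 and 0.005 in N40K mice. It scored 0.003, 0.004 and 0.003 in 5xFAD and 0.004, 0.003 and 0.004 in WT mice, so that the groups met at 0.004. It rose 1.30-fold (limma adjusted p = 0.0271, 0.29 relative to all genes) but missed the threshold in 6 of 12 omissions of 1 library, at an adjusted p of up to 0.0673 without 5xFAD replicate 3. The other 5 were WT replicate 2, N40K replicates 1 and 3, 5xFAD replicate 1 and dTg replicate 2. Syn1, synapsin, which tethers vesicles in the reserve pool, scored 0.00817 ± 0.000753 in carriers and 0.007 in each other library, and was not called (limma adjusted p = 0.0512). Rab3a had the largest change below 0 relative to its spread, with 0.0085 ± 0.000548 in carriers and 0.0095 ± 0.000548 in the others (SD, n = 6 each; change −0.13, limma adjusted p = 0.0922, or −0.23 relative to all genes).

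Among the vesicle membrane proteins, Syngr1 (ENSMUSG00000022415), synaptogyrin, a tetraspanning vesicle protein, scored 0.007, 0.010 and 0.008 in dTg and 0.010, 0.006 and 0.007 in N40K mice. It scored 0.005, 0.006 and 0.004 in 5xFAD and 0.005, 0.004 and 0.005 in WT mice, and the groups met at 0.006. It rose 1.45-fold (limma adjusted p = 0.0244, 0.45 relative to all genes). It missed the threshold without WT replicate 2 (adjusted p = 0.0615), 5xFAD replicate 3 or dTg replicate 2.

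Synpr (ENSMUSG00000056296), synaptoporin, a relative of synaptophysin, was listed at 0.001 in all 3 dTg libraries and at 0 in the other 9. It was called in the averaged comparison (limma adjusted p = 0.00015, 0.20 relative to all genes) although N40K and WT mice had the same value, and its difference amounts to 1 rounding step. Of the other vesicle membrane genes, Sv2c had 0.027 ± 0.00363 in carriers and 0.0227 ± 0.00294 in the others (SD, n = 6 each; limma adjusted p = 0.177). Slc17a7, the vesicular glutamate transporter, had 0.0293 ± 0.00225 in carriers and 0.0287 ± 0.00137 in the others.

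**Figure D3:**
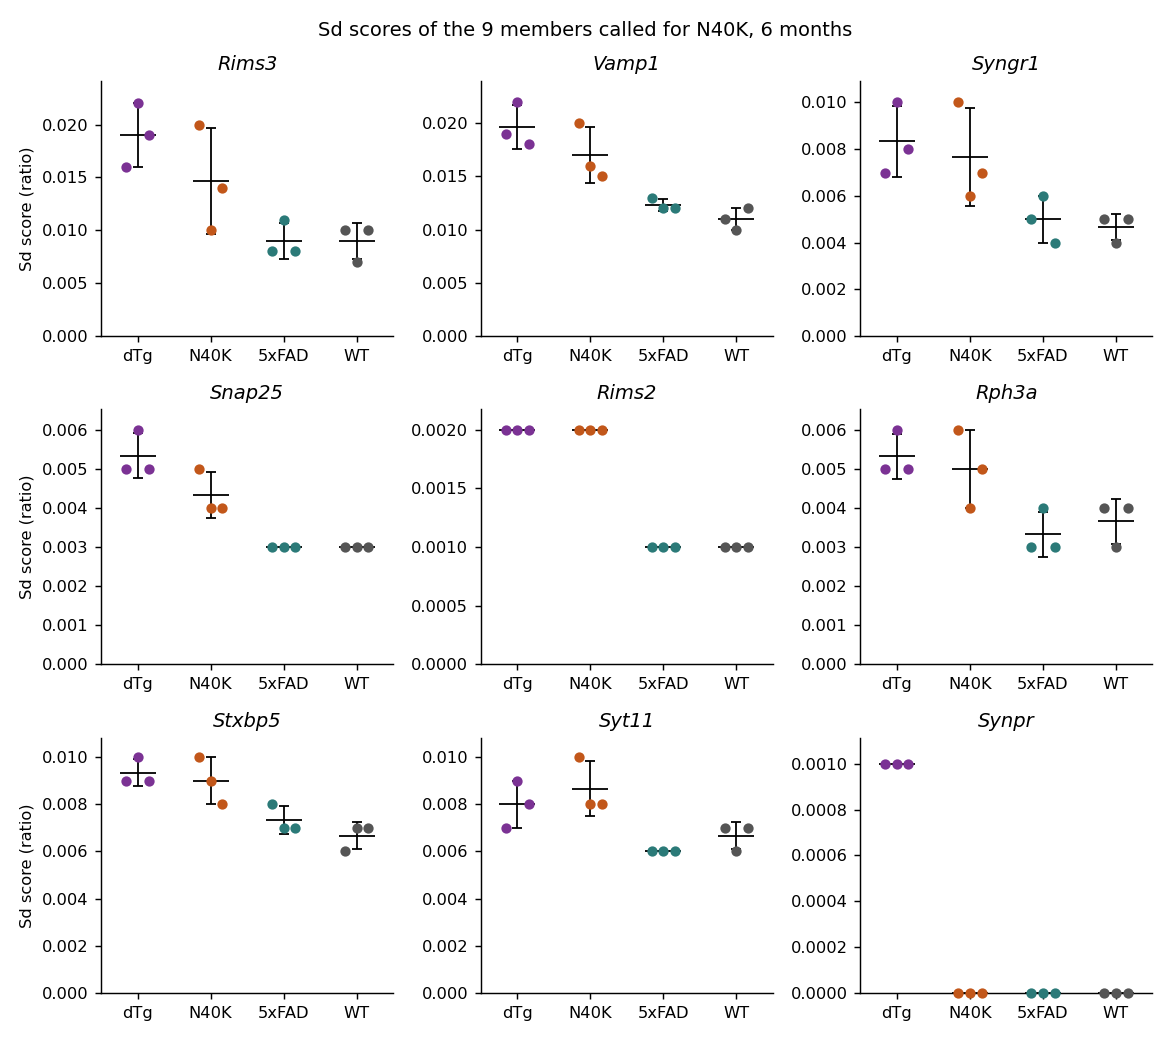
Sd scores (ratio, linear axes from 0) at 6 months of the 9 release genes called for the averaged N40K effect, with 1 point per library and the mean with SD (n = 3) in dTg, N40K, 5xFAD and WT mice. Vamp1, Snap25 and Rims2 separate the 6 carrier libraries from the rest, and Synpr stands at 0.001 in dTg mice only among the 4 groups.

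For 7 of the 9 called genes other annotated genes lie within the introns, and whether reads were counted by strand was not stated. The same holds for most release genes not called, among them Bsn, Cadps, Pclo and Syt1, so it is not particular to the called genes. In GENCODE M21, 2328 bases of Cd27 and 2352 bases of Tapbpl lie in introns of Vamp1 on the opposite strand, 318 bases of Rpl3 in introns of Syngr1 on the opposite strand and 2305 bases of Gm42656 in introns of Rph3a on the same strand. Snap25, Stxbp5, Rims2 and Synpr each hold 1 such gene, of 470, 131, 109 and 331 bases, and Vamp1 also holds a miRNA gene of 129 bases. Their part in the scores was not tested.

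The N40K difference was then taken in each background on its own. In dTg minus 5xFAD, 3 release genes rose, Snap25, Synpr and Rims2 (0.28% of all genes rose), and in N40K minus WT Rims2 was called (0.178% of all genes were called in either direction). Snap25 changed by 0.55 (SE 0.07, limma adjusted p = 0.0238) in dTg against 5xFAD mice, and by 0.34 (SE 0.07, limma adjusted p = 0.0778) in N40K against WT mice. The call of Snap25 in dTg minus 5xFAD was lost without any 1 of the 3 5xFAD libraries (limma adjusted p up to 0.109). It was also lost without any 1 of the 3 WT libraries, which enter the fit through the spread (limma adjusted p up to 0.0537). Each of these 6 omissions left 2 genes. Vamp1 changed by 0.59 in the first and 0.54 in the second without passing (limma adjusted p = 0.0745 in N40K minus WT). Rims3 changed by 0.93 and 0.57, Syngr1 by 0.56 and 0.52. These 2 differences share no library, and across the 41 genes they had r = 0.766 and rho = 0.736. They lay above 0 in both for 24 genes, below 0 in both for 3, on opposite sides for 3 and at 0 in at least 1 for 11. All genes were shifted above 0 as well, with medians of 0.0965 in dTg minus 5xFAD and 0.0958 in N40K minus WT. The signs and correlations were not taken over all genes. Each difference also holds 1 of the libraries of highest median, dTg replicate 2 or N40K replicate 1. Without N40K replicate 1, which is in neither group of the dTg minus 5xFAD comparison but shares its estimate of spread, 5 genes rose there (Vamp1 and Rims3 in addition), as did 1.76% of all genes. Without dTg replicate 2, 3 were called in N40K minus WT (Snap25 and Vamp1 in addition), with 3.34% of all genes called. Without WT replicate 3, 2 were called (Cadps in addition), with 0.229% of all genes.

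**Figure D4:**
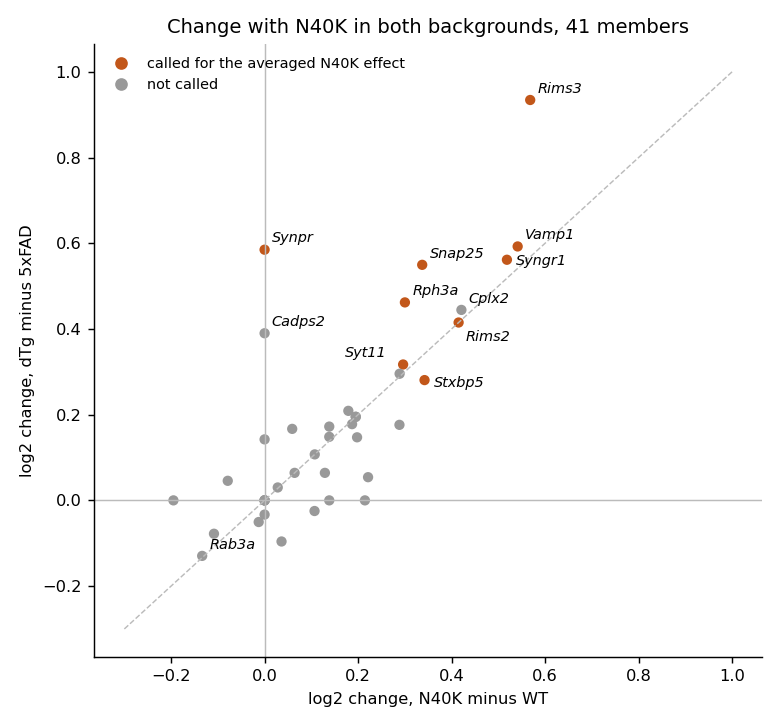
Log2 change of each of the 41 release genes in dTg minus 5xFAD mice (vertical) against N40K minus WT mice (horizontal), 1 point per gene, with the dashed line of equal change. Rims3 (0.93 and 0.57), Vamp1 and Syngr1 lie high on both axes, and Synpr and Cadps2 lie at 0 on the horizontal axis only.

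With both sets of transgenes, dTg minus WT, 4 release genes rose: Snap25, Vamp1, Synpr and Rims2 (1.41% of all genes rose). Vamp1 changed by 0.74 (SE 0.11, 1.67-fold, limma adjusted p = 0.0248) and Snap25 by 0.55 (SE 0.07, 1.46-fold, limma adjusted p = 0.0173). Snap25 and Vamp1 missed the threshold without WT replicate 1 or 2, which left Synpr and Rims2 (0.172% and 0.166% of all genes rose). Vamp1 also missed it without dTg replicate 2. Without N40K replicate 1, 7 genes rose, with Rims3, Syngr1 and Stxbp5 in addition, and 4.2% of all genes rose.

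No release gene passed for the 5xFAD transgenes by themselves. In 5xFAD minus WT none of the 41 was called (limma; 2 at an unadjusted p under 0.05, Cadps and Sv2a; 0.0191% of all genes called). Without WT replicate 3, 1 was called (0.0764% of all genes), Cadps, a priming factor of dense-core vesicles, which scored 0.003 in each 5xFAD library and 0.002, 0.002 and 0.003 in WT mice. Snap25 and Rims2 were identical in 5xFAD and WT mice. The 5xFAD effect averaged over N40K status, dTg minus N40K and the interaction of the transgenes each called Synpr alone, where 0.0446%, 0.0191% and 0.0191% of all genes were called. Its interaction of 0.58 (95% interval 0.49 to 0.68, limma adjusted p = 0.0018) is the step of 0.001 in dTg mice. For Snap25 the interaction was 0.21 (95% interval −0.01 to 0.44, limma adjusted p = 1) and for Rims3 0.37 (95% interval −0.35 to 1.08, limma adjusted p = 1). A larger N40K difference in 5xFAD mice was therefore not shown for either.

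At 12 months, Tau P301S minus WT asks how the tau transgene was related to the scores of release genes. None of the 41 was called (limma; 2 at an unadjusted p under 0.05, 0.00658% of all genes called). The 41 changes had a median of 0.0045, against −0.02 over all genes, with 21 above 0, 14 below and 6 at 0. WT replicates 3 and 4 had the highest medians over all genes (0.017 each, against 0.013 to 0.016 in the other libraries). Without them the median change was 0.097 for the release genes and 0.08 over all genes. No release gene was called in that setting, and 0.303% of all genes were.

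Sv2c (unadjusted p = 0.000847, limma over 10 libraries), a vesicle glycoprotein enriched in basal ganglia and a receptor of botulinum toxin, had scores of 0.093, 0.162, 0.130, 0.096, 0.145 and 0.129 in Tau P301S mice. Its scores were 0.071, 0.075, 0.042 and 0.061 in WT mice. All 6 Tau P301S libraries lay above all 4 WT libraries, a pattern shared with Stxbp5 among the release genes and found in 0.29% of all genes. The change was 1.00 (SE 0.20, 95% interval 0.53 to 1.46, 2.00-fold), which did not pass over all genes (limma adjusted p = 0.291). The two-sided exact permutation test of this single gene gave p = 0.00952 over 210 regroupings. That value is fixed once the groups do not overlap, and the gene was singled out by its low p, so it is a description. The intronic length of Sv2c includes parts of 3 other annotated genes, Gm17190 (1178 bases, opposite strand), Gm20075 (2161 bases, same strand) and Gm23955 (100 bases, same strand).

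Stxbp5 had 0.013, 0.017, 0.025, 0.013, 0.015 and 0.016 in Tau P301S mice, against 0.012, 0.012, 0.012 and 0.011 in WT mice. The nearest libraries of the groups were 1 step apart, and Tau P301S replicate 3 was far above the rest. The fold was 1.32 (limma unadjusted p = 0.0292, adjusted p = 0.553). Its exact permutation p of 0.00952 follows from the separation of the groups, by which the gene was picked, and is a description as well. Other genes called with N40K at 6 months were not separated at 12 months. Snap25 and Syt11 scored 0.001, the size of the rounding step, in all 10 libraries. A change smaller than that step could go unseen in them, so their lack of separation says little. Vamp1 averaged 0.010 ± 0.0019 in Tau P301S mice (n = 6) and 0.010 ± 0.00216 in WT mice (SD, n = 4). Rims3, the largest change with N40K, had 0.00267 ± 0.000516 in Tau P301S and 0.0035 ± 0.00173 in WT mice.

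**Figure D5:**
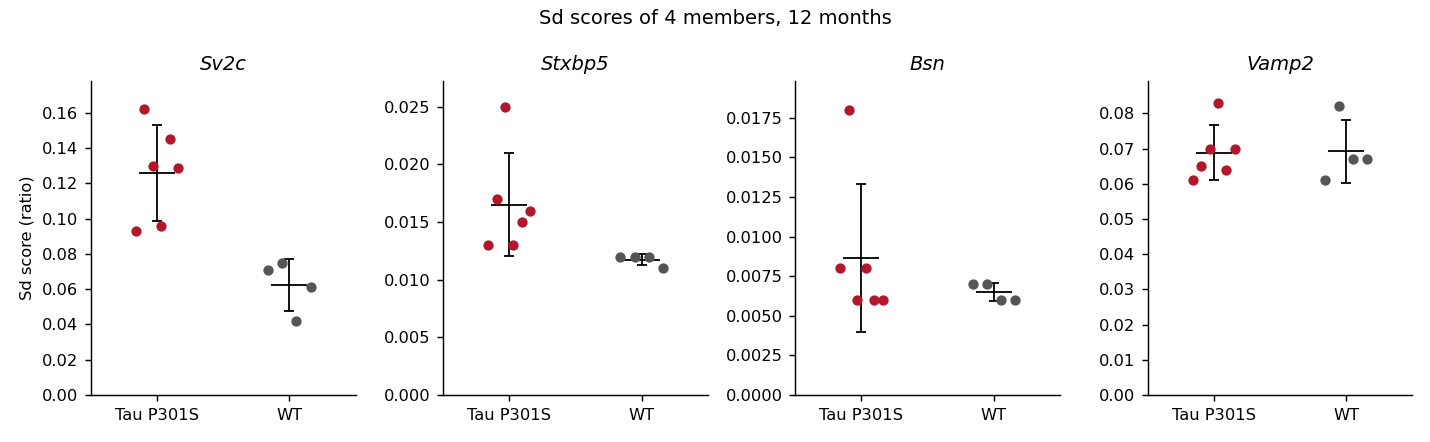
Sd scores (ratio, linear axes from 0) at 12 months of Sv2c, Stxbp5, Bsn and Vamp2, with 1 point per library and the mean with SD in Tau P301S (n = 6) and WT mice (n = 4). Sv2c lies between 0.093 and 0.162 in Tau P301S mice and between 0.042 and 0.075 in WT mice, while Vamp2 overlaps; Bsn, chosen after its values were seen, has 1 Tau P301S library at 0.018.

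Genes near the release machinery were set beside it for the averaged N40K comparison, in which 10.8% of all genes rose. Of 41 measured paralogues and partners 6 rose and none fell, among them Snap47, a SNAP25 relative (1.61-fold, limma adjusted p = 0.0104), the vesicle GTPase Rab3c (1.40-fold) and Rab3gap2, a subunit of the Rab3 GTPase-activating complex (limma adjusted p = 0.019). Of 30 genes of vesicle endocytosis and recycling 3 rose, the scaffold Itsn1 (1.32-fold), Scamp1 (1.32-fold) and Pacsin1 (1.46-fold). Of 20 genes of vesicle acidification and transmitter loading none was called (limma; 2 unadjusted). The shares that rose in the first 2 lists lay near that of all genes. The median changes of the 3 lists were 0.12, 0.06 and 0.08, against 0.09 over all genes. In Tau P301S minus WT none of the 3 lists held a call (limma; 4, 1 and 0 unadjusted).

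Cell type markers could be read only by their scores. In the averaged N40K comparison 0 of 7 neuronal markers were called (limma; 0 unadjusted), although their median change of 0.14 equalled that of the release genes at 2 decimals. There, 2 of 8 astrocyte markers rose, 1 of 6 oligodendrocyte and 1 of 4 endothelial markers fell, and 0 of 4 microglial markers were called (1 unadjusted). The part of cell composition in the changes of release genes was not tested.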

How the data were processed

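The authors deposited 1 table of Sd scores per age, each value a ratio rounded to 3 decimals. The submitters' processing notes name the mm9 build and the tools bedtools 2.16.1, BWA, STAR and CASAVA; per the labels' protocols, libraries were stranded and poly(A)-selected, with DNase digestion. Formula, annotation and read depth are not given in the sources used here, and no interval that needs depth is printed. No duplicate libraries were seen: the closest pair shared 24.7% of values.

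The analysis used log2(score + 0.002), a pseudocount equal to the 5th percentile of values above 0 that draws the folds of low scores towards 1. limma 3.58.1 in R 4.3.3 (default eBayes, 8 residual degrees of freedom, prior 1.2 at 6 months and 1.11 at 12 months) was fitted over all genes and libraries of a table with 1 term per group. A call is an adjusted p (Benjamini-Hochberg over the whole table, two-sided) under 0.05, and folds include the pseudocount. p-values measure the spread between libraries, taken as separate animals, moderated by the prior from all genes. Rims2 and Synpr had no spread within any 6-month group. In their p-values and intervals at 6 months that spread of 0 carries 8 degrees of freedom, against 1.2 for the prior. Spread below the rounding step could go unseen, so these values do not measure the spread between animals. Members and lists were chosen with earlier results of these data known. Members called in any comparison are given in every 6-month library, and only in part at 12 months. Of the others, those of smallest p (3 per table) or highest and lowest score are given. Sv2c and Slc17a7 at 6 months, Syt5, Syt7, Cadps, Unc13c, Sv2a and Bsn were named after their values were seen. Intron lengths and exon ends come from GENCODE M21 (GRCm38), 1 principal transcript per gene for exon ends. Alternatives were other pseudocounts, a minimum mean score, centring, an eBayes trend, untransformed scores, a replicate block, omitted libraries and, added after seeing the data, the rounding bounds and the omission of WT replicates 3 and 4 at 12 months.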

Additional observations from a re-analysis of the deposited data

Results flagged for a closer look

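Of the groups of the 12-month table, 41 combinations of a release gene and a group spanned at least 0.002 and were examined for a library far from the rest, and by the 95% critical value used chance flags about 1 in 20 groups. That rate was not tested for scores rounded to so few steps. The other 41 spanned less and were not examined. Among Tau P301S mice the highest library stood apart in Stxbp5 (0.025, replicate 3), Bsn (0.018, replicate 2), Cadps2 (0.006, replicate 2), Doc2a (0.138, replicate 4), Rab3a (0.016, replicate 4) and Syngr3 (0.044, replicate 4). Replicate 4 accounted for 3 of these 6 and replicate 2 for 2, against 0.006 to 0.008 for Bsn in the other 5 Tau P301S libraries. Among WT mice Sv2a was lowest at 0.013 in replicate 1 and Syngr3 highest at 0.046 in replicate 2. None of these genes was called at 12 months (limma; Stxbp5 at an unadjusted p of 0.0292).

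The interaction of N40K and 5xFAD differed from 0 for Synpr alone among the release genes (0.58 on the log2 scale, limma adjusted p = 0.0018). It rests on a score of 0.001 in 3 of 3 dTg libraries and of 0 in the N40K, 5xFAD and WT libraries, a difference that rounding allows to be close to nothing.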

How the results depend on the processing

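Counts of called release genes are given here by comparison. With a pseudocount of 0.01, and also after median-centring, 0 were called in the interaction, the averaged 5xFAD effect, N40K minus WT, dTg minus N40K and dTg minus 5xFAD, where the counts reported were 1, 1, 1, 1 and 3. A mean score of at least 0.02, which 8 of the 41 genes reach at 6 months, left 0 in these 5, in dTg minus WT and in the averaged N40K effect, since it removes every called gene. On untransformed scores 0 were called in those 5 and in dTg minus WT, and 5 in the averaged N40K effect; the cause was not tested. Without N40K replicate 1 and dTg replicate 2 together, 3 were called in N40K minus WT and 2 in dTg minus N40K. With 1 library left out, the counts ran from 1 to 3 in N40K minus WT, 0 to 1 in 5xFAD minus WT, 2 to 7 in dTg minus WT, 2 to 5 in dTg minus 5xFAD, 1 to 2 in dTg minus N40K, 5 to 11 in the averaged N40K effect, 1 to 2 in the averaged 5xFAD effect and in the interaction, and stayed at 0 in Tau P301S minus WT. Replicate numbers did not pair the libraries: same-numbered libraries of different groups deviated with r from −0.2 to 0.0708 at 6 months and from −0.265 to 0.191 at 12 months. With a replicate block, 5 were called in the averaged N40K effect, 2 in dTg minus WT and 0 in the interaction; dTg minus 5xFAD had 2 and the other counts did not move. Of the values of single called genes under the other alternatives (under the minimum mean score these genes have none), 310 kept their side of the threshold, 70 no longer passed and none changed direction. Depth per library is unknown, and the rounding step sets the limit: for Rims2 and Synpr it is as large as the difference.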
